A study of Rattus norvegicus with 66 samples.

Results

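The comparison described here sets gene expression in the hippocampus of 6 male (XY) rat pups exposed to the higher dose of Aroclor 1254 (group Aro5) against that of 9 control males. These 15 pups, with 16 libraries, were picked by their labels alone from a series of 66 libraries, or 64 pups counted by name. No expression value entered the choice. All were Long Evans rats, no transgene or deletion is given for any of them, and tissue was taken on postnatal day (PND) 6 while exposure went on. Aroclor 1254 was mixed into soy-free chow at a level meant to give the dam 5 mg/kg per day, from before mating through pregnancy and lactation, so that pups were exposed through the dam. Controls were 4 pups of dams on the same chow without a chemical (feeding controls, CONF) and 5 pups of dams that received subcutaneous injections of vehicle (injection controls, CONSC), a route that the Aroclor dams did not share. The 6 Aro5 males came from 5 litters, since 120-1y and 120-2y are littermates, and each of the 9 controls came from a litter of its own. Other groups used beside them were males of the higher dose of bisphenol A (BPA5, 7 pups, 5 mg/kg in chow), males of the higher dose of chlorpyrifos (CPF3, 7 pups, 3 mg/kg injected), males of the lower dose of Aroclor 1254 (Aro0.5, 4 pups, 0.5 mg/kg in chow), and females (5 Aro5 and 10 control pups).

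Aroclor 1254 is a commercial mixture of polychlorinated biphenyls (PCBs), persistent chlorinated compounds that pass to the offspring through placenta and milk. Some congeners bind the aryl hydrocarbon receptor (AhR) and switch on detoxification genes such as Cyp1a1 and Cyp1b1, others act on the xenobiotic receptors CAR and PXR, and PCBs are also known to lower circulating thyroid hormone and to sensitise ryanodine receptors, the calcium release channels of the endoplasmic reticulum. In the first postnatal week the rat hippocampus still forms granule cells, and synapses, inhibitory circuits and the intracellular calcium machinery mature.

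Library totals were 16193589 to 35045302 counts for Aro5 (median 29111441) and 10777044 to 18045602 for the 10 control libraries (median 15232137), so that most treated pups were sequenced more deeply. Kdm5d and Eif2s3y, both on the Y chromosome, had at least 50 counts in 42 of 42 male and 0 of 24 female libraries of the series. The dissected piece held dorsal hippocampus of both sides plus some cortex lateral to it, and it was not uniform between pups. Summed over 9 genes of neocortical layers, the level was 619.8 to 881 CPM (counts of a gene per 1000000 counts of the library) in Aro5 and 391 to 729 CPM in controls. Over 10 entries of thalamic genes it was 216 to 1305 CPM in Aro5 and 589 to 1550.5 CPM in controls. Of 13 entries known from hippocampal neurons 10 could be tested, 5 higher in Aro5 and 5 lower, with none past an unadjusted p of 0.05. Prox1, a marker of granule cells, had a median of 87.8 CPM in Aro5 and 112 CPM in controls. Neurod2 went the other way, with medians of 30.3 CPM in Aro5 and 23.8 CPM in controls. Whether these differences bear on the results below was not tested.

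The names of the libraries tie treatment to a second feature. In males, names end either in a capital Y (called form A here) or in a lower-case y (form B). All 6 Aro5 libraries, and all those of BPA5 and CPF3, have form B, whereas 9 of 10 control libraries have form A. Only control N2-2Y has a library of each form, and these were summed as 1 pup. What the form stands for is not given in the labels, and apart from N2-2Y it cannot be told apart from treatment.

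With all 15 pups, few genes changed. Among 16393 genes, 32 passed an adjusted p of 0.05 in edgeR's quasi-likelihood test (0.195% of those tested), 12 of them higher in Aro5 (0.0732%) and 20 lower (0.122%). These 32 are called changed in what follows. At an unadjusted p under 0.05 there were 1929 genes (11.8%), of which 1195 were higher (7.29%) and 734 lower (4.48%). By DESeq2 101 genes passed (0.616%), among them all 32. The ranges of Aro5 and control pups did not overlap for 50 genes (0.305%), 13 higher (0.0793%) and 37 lower (0.226%), and 23 of the 32 called genes were among them.

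Most of the 32 are not textbook genes. By their current RefSeq record, 11 are pseudogenes or ribosomal protein like copies, 9 are protein coding, 7 have no current record, 3 are mitochondrial and 2 are long non-coding RNAs, and 22 carry a provisional symbol (LOC or RGD). Reads of such copies can be shared with their parent genes, and how reads matching several places were counted is not stated, so values of the copies are uncertain.

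The copies with the strongest changes were close to absent from Aro5 pups. RGD1562404, now Rps18l3, a copy of the gene for ribosomal protein S18, had 1 count in the 6 Aro5 pups together, in 115-14y, and 229 counts in the 9 controls, whose levels were 0.584 to 2.92 CPM with a median of 1.88. The pooled share of counts was 257 times as high in controls as in Aro5 (95% exact interval 45.6 to 10183, counting error only), with an adjusted p of 3.32e-09 in edgeR. LOC102555797, without a current record, likewise had 1 count in Aro5 and 110 in controls, a ratio of 123 (interval 21.7 to 4914, adjusted p = 8.72e-07 in edgeR). No Aro5 pup reached the lowest control in either gene.

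Ybx1-ps4, a pseudogene of the RNA-binding protein gene Ybx1, had 0 to 0.215 CPM in Aro5 (median 0.123) and 0.731 to 3.18 CPM in controls (median 1.64), and fell by 3.66 ± 0.38 on the log2 scale, with the SE after the sign here and in what follows (adjusted p = 8.72e-07, edgeR). LOC100360758, now Prdx1-ps1, fell by 2.35 ± 0.27 on the log2 scale (adjusted p = 3.41e-06, edgeR), from a control median of 0.557 CPM to 0.106 CPM. In the other direction, LOC100360843, now Rps19l3, had 0.757 to 1.62 CPM in Aro5 and 0 to 0.555 CPM in controls (log2 fold change 2.45 ± 0.35, adjusted p = 0.000208, edgeR). For these 3 genes, too, the groups did not overlap.

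The parent genes of these copies were not called. Rps18 had a median of 162 CPM in Aro5 and 159.5 CPM in controls (log2 fold change -0.06 ± 0.13). Ybx1 differed by -0.07 ± 0.05, Prdx1 by -0.06 ± 0.08, Ppia, the parent of the lowered LOC100360977 (Ppial4d), by -0.02 ± 0.07, and Matr3, the parent of the raised LOC692028 (Matr3-ps1), by 0.20 ± 0.13. None of these parents had an unadjusted p under 0.05. Luc7l3, a splicing factor gene whose copy LOC688867 was raised, had a log2 fold change of 0.23 ± 0.11 with an unadjusted p of 0.0456 (adjusted p = 0.416, edgeR).

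Rps27l3, now Rps27a-ps12, was the raised copy with the highest level. It had 13.8 to 17 CPM in Aro5 (median 14.2) and 6.77 to 12 CPM in controls (median 7.48), with no overlap, and rose by 0.89 ± 0.10 on the log2 scale (adjusted p = 2.07e-06, edgeR). Its highest control was N2-2Y. The gene that RefSeq now names Rps27a, which makes a fusion of ubiquitin and ribosomal protein S27a, had the opposite sign, with a log2 fold change of -0.20 ± 0.07 (unadjusted p = 0.00749, adjusted p = 0.259, edgeR).

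The 2 libraries of N2-2Y differed from each other in most of these genes. In RGD1562404 its form A library had 1.15 CPM and its form B library 0.0564 CPM, the former within the range of the other 8 controls and the latter next to the Aro5 pups. Over the 32 called genes, the form B library differed from the form A library in the direction of Aro5 in 31 (96.9%), against 46.8% of all 16393 genes. In 25 of the 32 the form A library was nearer to the control level and the form B library nearer to the Aro5 level. Both libraries were nearer to Aro5 in 3, both nearer to controls in 3, and the order was turned in 1. Since N2-2Y itself entered these calls, its share was also read with the pup left out: 67 genes were then called (0.409% of 16368), including all 32, and 45 of them (67.2%) differed in the same direction between its libraries, against 45.0% of all genes tested. Of the 1746 genes called without N2-2Y in the time window described below, 407 (23.3%) had the direction of Aro5 between its libraries, a smaller share than among all genes. A fit with the name form as a covariate, in which N2-2Y alone separates form from treatment, called 0 genes in edgeR and had 169 at an unadjusted p under 0.05. No other tool was run for that fit.

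**Figure D1:**
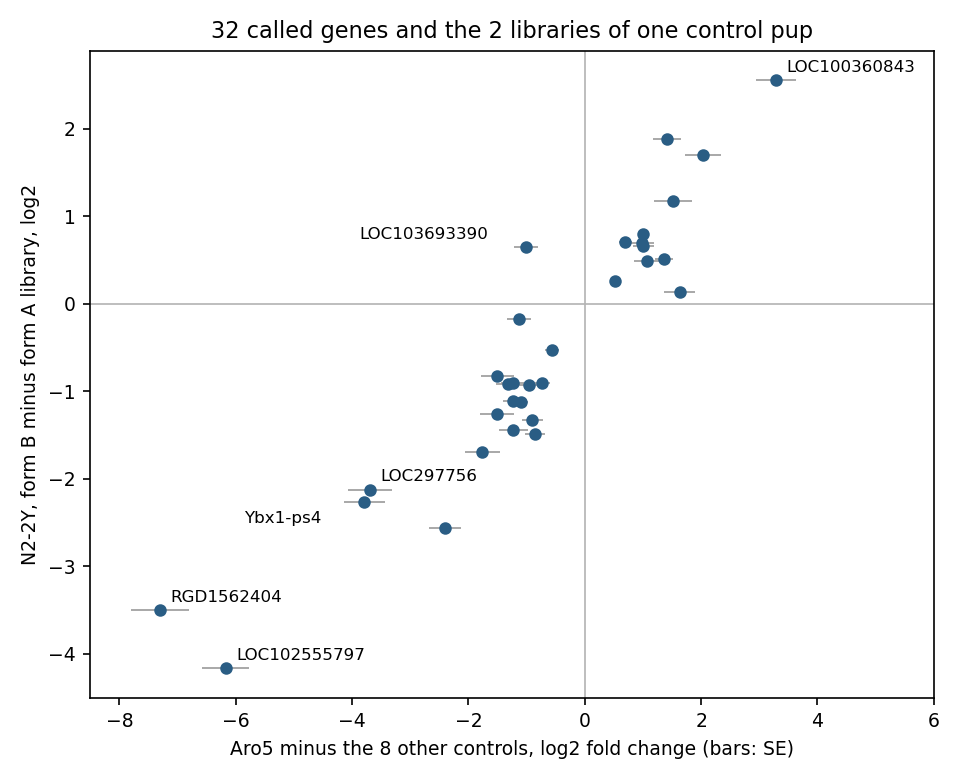
For each of the 32 called genes, the log2 fold change of the 6 Aro5 males against the 8 other controls (x axis, bars are SE) is plotted against the log2 ratio of the form B to the form A library of control N2-2Y (y axis). In 31 of 32 genes both have the same sign, and LOC103693390 is the exception.

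Female controls give a second reading. Their name form rests on the separator before the pup number and not on the case of the last letter. The names of the Aro5 males have the separator that marks form A in females, although these males are form B by the last letter. Among male libraries only the form B library of N2-2Y lacks that separator. The libraries of N2-2Y thus differ by both rules, whereas the Aro5 males differ from the other controls by the last letter alone. Whether both rules mark the same feature is not given in the labels and was not tested. By the separator, the 11 female control libraries split into 5 of form A and 6 of form B. Between these forms 237 of 16577 genes differed (1.43%) by edgeR. Of the 32 genes called in males 23 could be tested there, 5 were called (21.7%), and 3 of these had the direction of the Aro5 males (ND6, LOC297756 and LOC102548080, while LOC102551813 and Rpl31l4 had the opposite one). The sign matched in 11 of 23 (47.8%), against 64.4% of all genes. Of the 67 genes called without N2-2Y 54 could be tested there, the sign matched in 36 (66.7%), against 63.6% of all genes, and 6 were called, 4 of them in the direction of the Aro5 males. Counted by name, the 11 libraries come from 10 pups, since N4-3x has a library of each form, and the fit treats these as independent. The labels give the libraries of N4-3x different times of dissection, so that whether they come from 1 pup is uncertain. In the fits over both sexes they were summed. Without the form A library of N4-3x 1049 genes were called and without its form B library 187.

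Mitochondrial genes split by strand. ND6, the only protein gene on the strand opposite to most mitochondrial genes, encodes a subunit of complex I. It had 29.7 to 59.1 CPM in Aro5 (median 42.4) and 72.4 to 106 CPM in controls (median 87.2), so that the groups did not overlap and the lowest control was N2-2Y. Its log2 fold change was -1.06 ± 0.12 (adjusted p = 2.28e-06, edgeR). The form A library of N2-2Y had 101 CPM and its form B library 46.1 CPM. In female controls, with the form told by the separator, form A libraries had 49.6 to 61.8 CPM and form B libraries 22.4 to 32.7 CPM. Their log2 difference was -0.92 (adjusted p = 0.000354, edgeR), without a treated pup among them.

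Transfer RNA genes of the same strand went with ND6. Of 9 entries of that strand 8 could be tested, all 8 were below 0, 7 had an unadjusted p under 0.05, and 3 were called (ND6, Trnp and Trns1, the last 2 for proline and serine). Their median log2 fold change was -0.92, with a range from -1.11 for Trnq to -0.04 for Trnc. On the main strand 20 of 26 entries could be tested, 0 were called in edgeR, 3 had an unadjusted p under 0.05 (Trnk at -0.53, ND4 at 0.28 and ND5 at 0.35), and the median was -0.01. DESeq2 likewise called ND6 alone among the 13 protein genes of the mitochondrial genome. Strands follow the known gene order of the mammalian mitochondrial genome, and the split was added after the values had been seen.

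**Figure D2:**
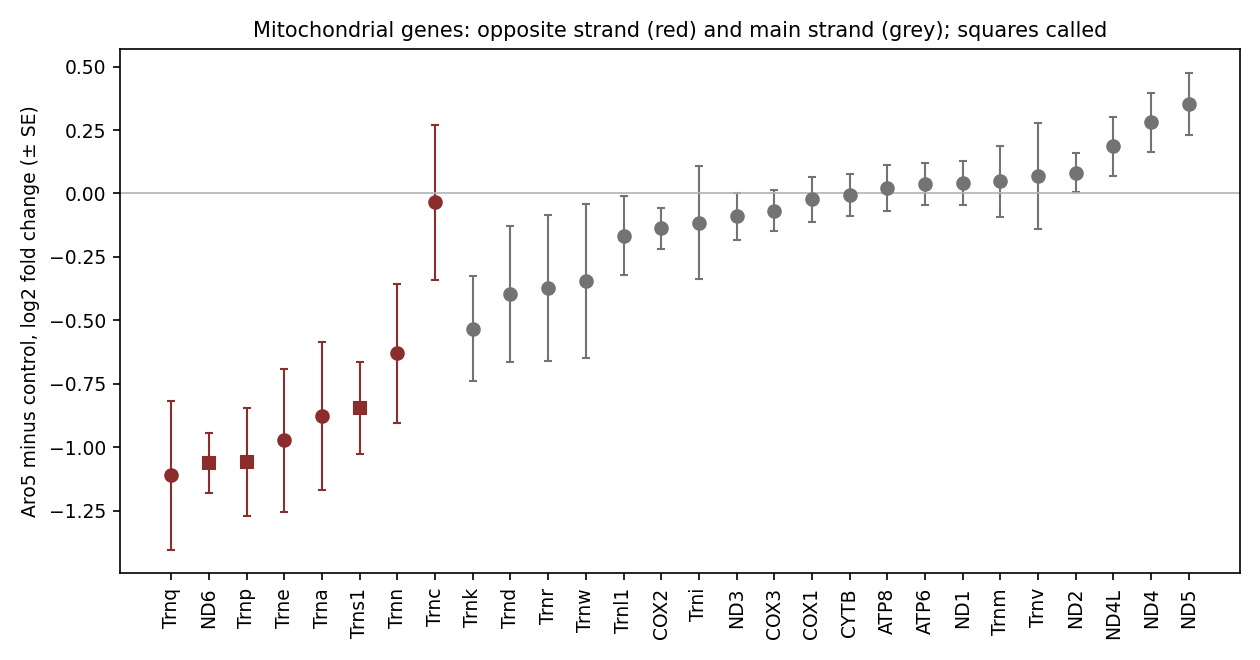
Log2 fold change of Aro5 against control males (y axis, bars are SE) for the 28 mitochondrial entries that could be tested, ordered by strand and size. The 8 genes of the strand opposite to most mitochondrial genes (red) lie between -1.11 and -0.04, the 20 of the main strand (grey) between -0.53 and 0.35, and squares mark the 3 called genes.

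Among protein-coding genes with established symbols, 4 entries were called. Hnrnph3, which encodes a splicing factor of the hnRNP H family, had 6.05 to 7.39 CPM in Aro5 (median 6.49) and 3.27 to 5.26 CPM in controls (median 4.22), and rose by 0.64 ± 0.11 on the log2 scale (adjusted p = 0.00357, edgeR). The groups did not overlap. In N2-2Y the form A library had 3.95 CPM and the form B library 6.48 CPM. Hnrnph1, its best known relative, had a log2 fold change of 0.04 ± 0.08.

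Tmem14a, a small membrane protein gene, had 1.46 to 3.33 CPM in Aro5 (median 2.15) and 3.21 to 7.15 CPM in controls (median 5.84), so that 108-1y alone overlapped with the controls. It fell by 1.26 ± 0.21 on the log2 scale (adjusted p = 0.0019, edgeR). LOC103693210, the next entry in the gene table, fell by 0.80 ± 0.17 (adjusted p = 0.0392, edgeR), and whether the 2 entries share reads was not tested.

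Clasp1 encodes a protein that stabilises microtubule ends. Its levels were 7.66 to 12.1 CPM in Aro5 (median 10.1) and 12.1 to 17.2 CPM in controls (median 15), with an overlap at the border, and it fell by 0.53 ± 0.11 on the log2 scale (adjusted p = 0.0399, edgeR). The symbol Chtop belongs to 2 entries. The one with few counts, now Chtopl1, had a control median of 3.1 CPM and fell by 0.70 ± 0.13 (adjusted p = 0.00677, edgeR). The one that makes the mRNA export factor, with a control median of 188 CPM, had a log2 fold change of -0.08 ± 0.06 (adjusted p = 0.691, edgeR).

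Levels of the called genes were shared with the other high-dose groups, whose libraries have form B as well. ND6 had 39.7 to 56.1 CPM in BPA5 and 41.8 to 59.9 CPM in CPF3, close to the range of Aro5. Hnrnph3 had 4.81 to 7.34 CPM in BPA5 and 5.83 to 8.87 CPM in CPF3. In Aro0.5 males, whose names have form A, ND6 was 66.5 to 89.8 CPM, Hnrnph3 3.16 to 4.18 CPM and RGD1562404 0.469 to 1.18 CPM, in all 3 genes nearer to the controls than to Aro5.

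**Figure D3:**
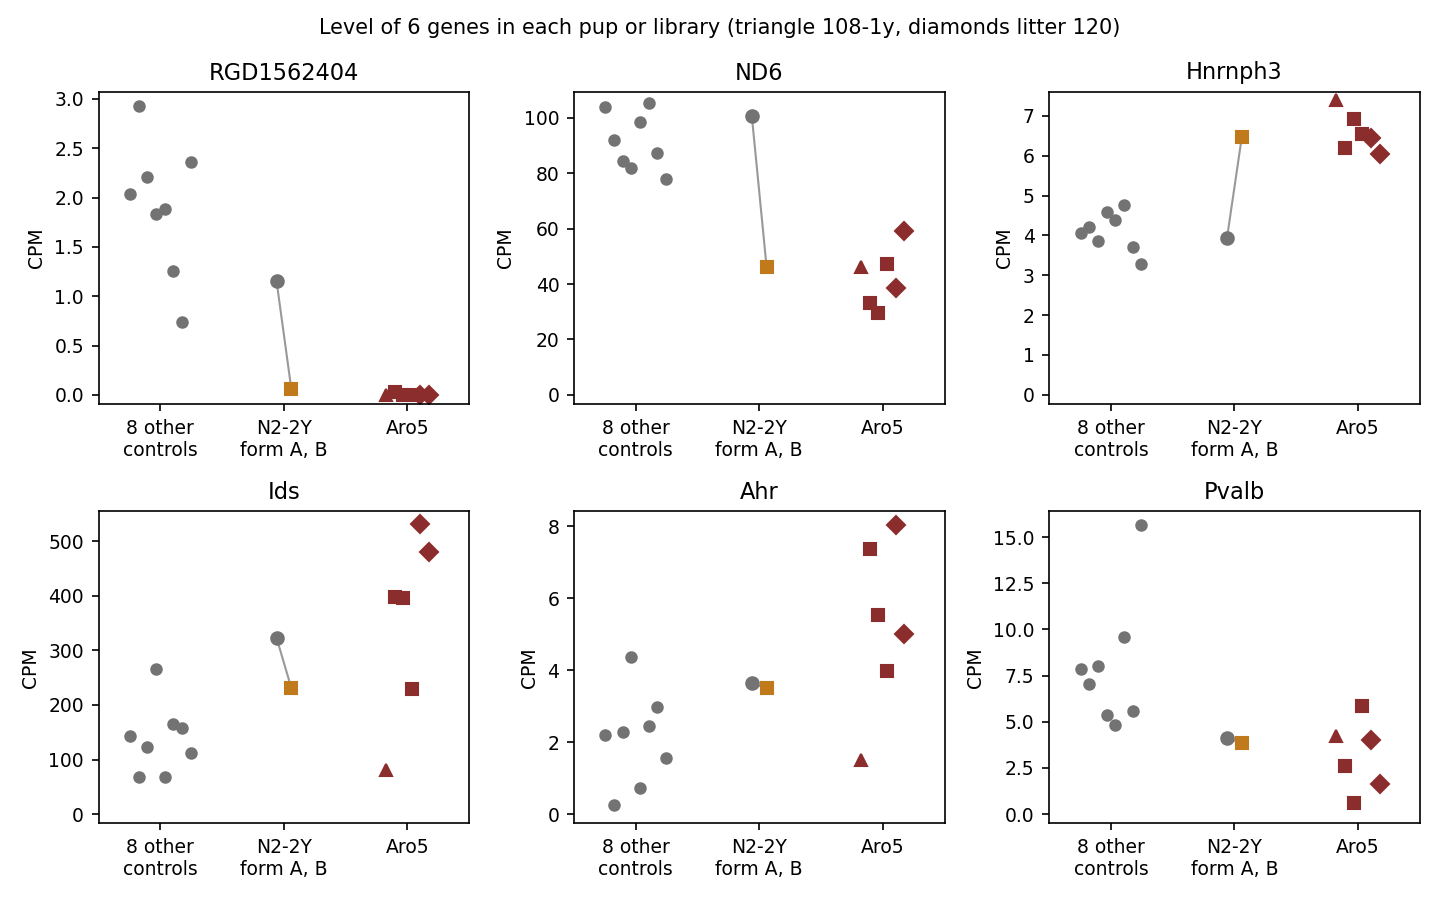
Levels in CPM (y axis, linear from 0) of 6 genes in the 8 controls with 1 library, in the form A (grey) and form B (orange) library of control N2-2Y, joined by a line, and in the 6 Aro5 males (red). RGD1562404, ND6 and Hnrnph3 move with the name form in N2-2Y, whereas for Ids and Ahr the Aro5 pup 108-1y (triangle) lies among the controls.

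A second set of genes depended on which pups were compared. Taking a window of 10.30 to 13.20 h for the time of dissection, 5 of the 15 pups lay outside it: Aro5 108-1y (15.45 h) and 117-4y (9.45 h), and controls 10-2Y (10.00 h), 13-1Y and 6-5Y (both 10.15 h). With the 4 Aro5 and 6 control pups inside the window, 818 of 16484 genes were called (4.96%), 689 higher (4.18%) and 129 lower (0.783%), including 31 of the 32. Without 108-1y alone, and all other pups kept, 176 genes were called (1.07%). Of the 689 raised genes 115 were among these 176, and so were 53 of the 129 lowered.

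**Figure D4:**
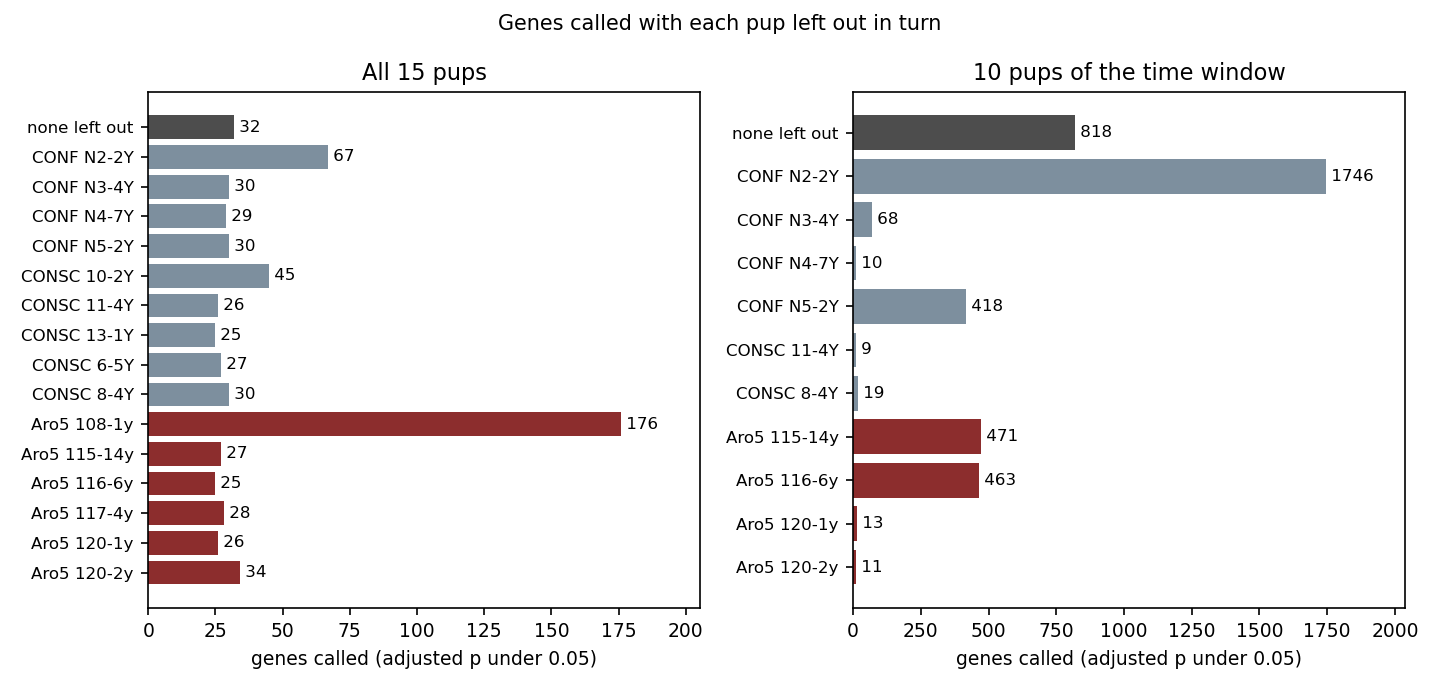
Number of genes with an adjusted p under 0.05 (x axis, from 0) when each pup in turn was left out, with all 15 pups (left) and with the 10 pups of the time window (right). The counts run from 25 to 176 on the left, where 108-1y gives the highest, and from 9 to 1746 on the right, where N2-2Y gives the highest.

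The number of genes called within the window depended on single pups. Leaving out control 11-4Y left 9 called genes, N4-7Y 10, 8-4Y 19 and N3-4Y 68, and leaving out Aro5 120-2y left 11 and 120-1y 13. Without N5-2Y there were 418, without 115-14y 471 and without 116-6y 463, and without N2-2Y the number rose to 1746. Counts at an unadjusted p under 0.05 in edgeR moved less. They ran from 2646 without 11-4Y to 4315 without N2-2Y, against 3327 with all pups of the window. Only 8 genes were called in the window whichever pup was left out, namely RGD1562404, Ybx1-ps4, LOC102555797, LOC297756, Rps27l3, LOC102551813, ND6 and LOC102553486, and 7 of these are among the 32.

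The raised genes of the window were highest in 1 litter and low in 1 pup. In 444 of 689 (64.4%) the littermates 120-1y and 120-2y had the highest levels of the 6 Aro5 males, and in 610 (88.5%) pup 108-1y lay below the control median. These genes were picked in a fit that left out 108-1y and held both pups of litter 120. Both shares thus follow in part from the choice, and the shares over all genes were not computed. The median log2 fold change of the raised genes was 0.68 in the window, 0.40 with all pups and 0.23 without litter 120. It was 0.19 against the other high-dose males and -0.11 in females. A smaller median outside the fit that picked the genes likewise follows in part from the choice. The 129 lowered genes were less tied to these pups: litter 120 held both lowest levels in 20 (15.5%), 108-1y was above the control median in 21 (16.3%), and the median log2 fold change was -0.39 in the window, -0.26 with all pups and -0.25 without litter 120. Without both pups of litter 120, 16 genes were called with the remaining 4 Aro5 pups (0.0963%), 15 of them among the 32, and they include 4 of the 689 and 11 of the 129.

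The same pups stood at the ends of the main axis of variation. The first principal component over all genes took 34.9% of the variance between the 15 pups, with scores of 43.1 for 120-1y and 33.3 for 120-2y at one end, and -31.3 for 108-1y, -29 for control N4-7Y and -26.7 for control 11-4Y at the other. Treated and control pups thus occurred at the low end together.

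The 10 genes raised most in the window serve unlike functions. Ids, which encodes the lysosomal enzyme iduronate sulfatase, had 81.6 CPM in 108-1y, 229 CPM in 117-4y, 396 CPM in 116-6y, 398 CPM in 115-14y, 481 CPM in 120-2y and 532 CPM in 120-1y. The 9 controls had 67.2 to 275 CPM with a median of 143, so that 4 Aro5 pups were above every control and 108-1y was below the control median. The log2 fold change was 1.80 ± 0.37 in the window (adjusted p = 0.0259, edgeR) and 1.22 ± 0.34 with all pups (adjusted p = 0.169).

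Kcnt2, which encodes a sodium-activated potassium channel, had 2.74 CPM in 108-1y and up to 18.3 CPM in 120-1y, against 2.01 to 10 CPM in controls. Its log2 fold change was 1.92 ± 0.41 in the window (adjusted p = 0.0259, edgeR) and 1.26 ± 0.37 with all pups (adjusted p = 0.199). Frmpd4, a scaffold gene of dendritic spines, differed by 1.75 ± 0.39 in the window (adjusted p = 0.0259, edgeR) and by 0.90 without litter 120 (adjusted p = 0.231). Trove2 (now Ro60), whose product binds misfolded small RNAs, differed by 2.11 ± 0.45 in the window (adjusted p = 0.0259, edgeR) and by 1.37 ± 0.42 with all pups (adjusted p = 0.214).

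The remaining genes raised most there had log2 fold changes in the window of 1.99 for Zbed6, a transcriptional repressor, 1.89 for Lmbrd2, 1.78 for Scai, a cofactor of actin-regulated transcription, 1.77 for Lrrc58, 1.71 for Alg10, a glucosyltransferase of protein glycosylation, and 1.66 for Thsd7a. With all pups they lay between 1.14 and 1.28, none was called by edgeR, and DESeq2 called Thsd7a (adjusted p = 0.0175). In each of these 10 genes the sign in females was negative.

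The genes lowered most in the window were again of unlike function. Pvalb, the calcium-binding protein parvalbumin of fast-spiking interneurons, had 0.61 to 5.88 CPM in Aro5 (median 3.3) and 3.97 to 15.6 CPM in controls (median 7.07). Its log2 fold change was -1.77 ± 0.51 in the window (adjusted p = 0.0467, edgeR) and -1.21 ± 0.41 with all pups (adjusted p = 0.253), and the highest control was 8-4Y. The groups overlapped, with 117-4y, 108-1y and 120-1y inside the range of the controls.

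Oxtr, the receptor of oxytocin, had 3.27 to 5.41 CPM in Aro5 (median 4.35) and 5.49 to 12 CPM in controls (median 6.5), so that all 6 Aro5 pups lay below all controls. The log2 fold change was -0.89 ± 0.25 in the window (adjusted p = 0.0431, edgeR) and -0.79 ± 0.21 with all pups (adjusted p = 0.132, and 0.0239 in DESeq2). In Aro5 females it was 0.17. Mt3, a metal-binding protein of the brain, differed by -0.58 ± 0.17 in the window (adjusted p = 0.0465, edgeR) and by -0.39 ± 0.13 with all pups (adjusted p = 0.256). Tshz2, a transcription factor gene, differed by -0.71 ± 0.20 and by -0.53 ± 0.16 (adjusted p = 0.0482 and 0.212, edgeR), and Krt18, Ttc25 and Tmem159 by -0.73, -0.79 and -0.55 in the window.

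Genes of the ribosome were mostly lower in Aro5, by small amounts. Of 82 ribosomal protein entries tested, 67 were below 0, with a median log2 fold change of -0.12, against -0.00 over all genes. None was called lower by edgeR and 6 were by DESeq2, while the only 2 called higher, Rps27l3 and Rpl31l4, are copies. At an unadjusted p under 0.05, 25 were lower and 2 higher, where 4.48% and 7.29% of all genes were. In the window 15 were called lower (0.783% of all genes), the same 2 were called higher (4.18% of all genes), and the median was -0.25. Summed over the list, the level was 14158 CPM in 120-1y and 14586 CPM in 120-2y, the lowest of the 15 pups, 16377 to 17892 CPM in 115-14y, 116-6y and 117-4y, and 20483 CPM in 108-1y. Controls had 16605 to 20829 CPM, so that 108-1y was at the level of the highest controls.

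Messenger RNAs of ribosomal proteins are known to begin with a cytosine followed by a run of pyrimidines, a feature through which their translation is controlled together. Of 64 promoter windows of these genes in the RefSeq table for the build GRCr8, 19 (29.7%) hold CTTTC, read on the strand of the gene, within the 10 bases before to 10 bases after the annotated start, against 742 of all 33469 windows (2.22%). A match is a description of letters and not of a start site. The stretches below run from 30 bases before to 30 bases after the start, with CTTTC in capitals where it lies in that part, and are shown for 3 genes that were lower at an unadjusted p under 0.05. They were picked after their values were seen and because they hold the motif. Of 25 ribosomal entries lower at that level 19 have a window, and 5 of their 20 windows hold it. Positions are chr1:181860255-181860314 on the minus strand for Rps15a, chr10:83272155-83272214 on the minus strand for Rpl23 and chr2:55942915-55942974 on the plus strand for Rpl37.
Rps15a: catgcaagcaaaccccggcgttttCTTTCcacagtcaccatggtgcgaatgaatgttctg
Rpl23: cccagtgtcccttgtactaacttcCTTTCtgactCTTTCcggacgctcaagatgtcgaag
Rpl37: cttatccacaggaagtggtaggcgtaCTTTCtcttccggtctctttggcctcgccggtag

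Rps15a had a median of 230.5 CPM in Aro5 and 276 CPM in controls, with a log2 fold change of -0.26 ± 0.06 (adjusted p = 0.101, edgeR) and -0.31 in the window (adjusted p = 0.033). Rpl23 differed by -0.18 with all pups and Rpl37 by -0.22, and neither was called in the window. Rpl34 showed one of the stronger differences, with 97.7 to 162 CPM in Aro5 (median 136) and 141 to 201 CPM in controls (median 172), a log2 fold change of -0.36 ± 0.10 (adjusted p = 0.152, edgeR). In this gene, too, the highest Aro5 pup was 108-1y, and with 117-4y and 116-6y it overlapped with the controls. DESeq2 called it with all pups (adjusted p = 0.0461).

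Nuclear genes of the respiratory chain went the same way. Of 76 tested 64 were below 0, with a median of -0.08. None was called by edgeR, DESeq2 called Cox7c and Sdhc lower, and 14 were lower and 1 higher at an unadjusted p under 0.05, beside 4.48% and 7.29% of all genes. In the window 9 were called lower (0.783% of all genes). Cox7c, a subunit of cytochrome c oxidase, had 97.2 to 125 CPM in Aro5 (median 109) and 110.1 to 153 CPM in controls (median 138), a log2 fold change of -0.30 ± 0.07 (adjusted p = 0.0816, edgeR). Sdhc, a membrane subunit of succinate dehydrogenase, differed by -0.20 ± 0.06 (adjusted p = 0.169, edgeR).

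The AhR pathway, the best known target of dioxin-like PCBs, had no called gene with all pups. Of 12 entries for the receptor, its partners and its targets 9 could be tested, and Cyp1a1, Cyp1a2 and Ahrr, the repressor of the receptor, had too few counts. Beside edgeR, DESeq2 also called 0, and 1 gene was higher and 1 lower at an unadjusted p under 0.05 (7.29% and 4.48% of all genes). The binding motif of the receptor has the core GCGTG, and the promoter windows of 3 targets that were measured are given to show where it lies. They run from 250 bases before to 50 bases after the start in the RefSeq table for GRCr8, with the core in capitals on either strand (CACGC where it lies on the other strand). The positions are chr6:21094315-21094614 on the plus strand for Cyp1b1, chr2:152063519-152063818 on the plus strand for Tiparp and chr19:52220218-52220517 on the minus strand for Nqo1.
Cyp1b1: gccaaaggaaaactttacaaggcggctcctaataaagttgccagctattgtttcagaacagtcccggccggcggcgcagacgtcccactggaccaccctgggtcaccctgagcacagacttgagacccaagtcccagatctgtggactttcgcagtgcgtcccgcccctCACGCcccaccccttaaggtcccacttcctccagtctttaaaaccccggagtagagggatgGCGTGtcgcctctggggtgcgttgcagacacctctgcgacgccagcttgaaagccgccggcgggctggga
Tiparp: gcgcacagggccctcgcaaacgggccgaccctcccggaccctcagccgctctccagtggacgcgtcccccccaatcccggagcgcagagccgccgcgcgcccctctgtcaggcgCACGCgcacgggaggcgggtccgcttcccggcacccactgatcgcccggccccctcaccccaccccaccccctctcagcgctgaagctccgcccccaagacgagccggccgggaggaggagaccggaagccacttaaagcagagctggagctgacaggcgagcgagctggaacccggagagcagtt
Nqo1: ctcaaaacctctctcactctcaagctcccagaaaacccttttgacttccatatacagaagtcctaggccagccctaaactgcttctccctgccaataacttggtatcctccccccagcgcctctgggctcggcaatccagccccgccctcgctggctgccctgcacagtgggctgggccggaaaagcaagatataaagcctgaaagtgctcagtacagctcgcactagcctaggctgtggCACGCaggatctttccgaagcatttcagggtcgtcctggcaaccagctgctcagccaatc

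The core occurs 2 times in the window of Cyp1b1 and 1 time in each of the others, and 9939 of all 33469 windows hold it (29.7%), so that its presence does not set these genes apart. Cyp1b1, a monooxygenase, had 1.36 to 4.89 CPM in Aro5 (median 2.94) and 1.22 to 4.05 CPM in controls (median 2.78), a log2 fold change of 0.20 ± 0.28. Tiparp, an ADP-ribosyltransferase that limits AhR activity, differed by 0.15 ± 0.12. Nqo1, a quinone reductase, differed by -0.23 ± 0.10 (unadjusted p = 0.0213, adjusted p = 0.323, edgeR). None of the 3 targets thus passed the test, and the interval of Cyp1b1 is wide at these counts.

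Ahr itself gave the largest value of the list. It had 1.52 CPM in 108-1y, 3.97 CPM in 117-4y, 5 CPM in 120-2y, 5.53 CPM in 116-6y, 7.37 CPM in 115-14y and 8.03 CPM in 120-1y, against 0.244 to 4.38 CPM in controls (median 2.28). Here 4 Aro5 pups lay above all controls. The log2 fold change was 1.20 ± 0.33 (unadjusted p = 0.00111, adjusted p = 0.169, edgeR), 1.83 in the window (adjusted p = 0.0259) and 1.38 without 108-1y (adjusted p = 0.0352). The form A and form B libraries of N2-2Y had 3.64 and 3.49 CPM, as the plot of levels by pup shows. Against the other high-dose males the difference was 0.26 (unadjusted p = 0.382, edgeR), and in females -0.34.

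CAR and PXR targets were mostly little expressed, with 10 of 16 entries under 1 CPM in all 15 pups, and none was called. Gstm1 and Por had higher levels, with medians of 168 and 67.7 CPM in Aro5 and 175 and 58.1 CPM in controls. Their log2 fold changes were -0.04 ± 0.07 and 0.07 ± 0.14. Of 16 entries 7 could be tested, 0 were called by edgeR or DESeq2, and 0 had an unadjusted p under 0.05. The lowest p belonged to Abcb1b, an efflux pump, with a log2 fold change of -0.17 ± 0.15.

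Thyroid hormone signalling likewise showed no called gene with all pups, by edgeR or DESeq2. Of 14 tested members (receptors, transporters, deiodinases and coregulators) 3 were higher at an unadjusted p under 0.05 (7.29% of all genes), and the median was 0.09. Ncor1, a corepressor of the receptor, had 116 to 168 CPM in Aro5 (median 160.4) and 101 to 157 CPM in controls (median 125), a log2 fold change of 0.28 ± 0.10 (adjusted p = 0.251, edgeR) that was 0.46 in the window (adjusted p = 0.03). Thrb, the receptor beta gene, differed by 0.42 ± 0.19 (unadjusted p = 0.0316, edgeR). Dio2 and Dio3, which activate and inactivate the hormone, differed by 0.24 ± 0.18 and 0.23 ± 0.55. Among 14 genes known to respond to the hormone Klf9 alone had an unadjusted p under 0.05 (log2 fold change 0.55 ± 0.23, adjusted p = 0.328, edgeR).

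Calcium release and its partners gave a like picture. Of 19 members tested 0 were called by edgeR or DESeq2, 5 were higher at an unadjusted p under 0.05 (7.29% of all genes), and the median was 0.01. Ryr2, the ryanodine receptor with the highest level here, had 71 to 102 CPM in Aro5 (median 91.8) and 45.1 to 87.7 CPM in controls (median 64.9), a log2 fold change of 0.47 ± 0.17 (adjusted p = 0.284, edgeR). Ryr3 and Ryr1 differed by 0.03 ± 0.12 and -0.11 ± 0.18. Itpr1, the main inositol trisphosphate receptor of neurons, differed by 0.50 ± 0.19 and Homer1, a scaffold of metabotropic receptors, by 0.37 ± 0.14. In the window these last 2 were called, with log2 fold changes of 0.83 and 0.60 (adjusted p = 0.0313 and 0.0427, edgeR). The calcium pumps Atp2b2 and Atp2b1 differed by 0.31 ± 0.13 and 0.25 ± 0.12.

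The study picked 4 lists on these samples, namely receptors and factors of signalling between cells, Pou genes, Sox genes and interneuron genes, so that their direction is not independent evidence. For the first of these, 7 of 9 entries tested were higher at an unadjusted p under 0.05 (7.29% of all genes), 0 were called by edgeR or DESeq2, the median was 0.42, and 5 were called higher in the window (4.18% of all genes). Erbb4, a neuregulin receptor of interneurons, had 3.43 to 10.2 CPM in Aro5 (median 8.88) and 2.36 to 7.01 CPM in controls (median 4.42), a log2 fold change of 0.83 ± 0.26 (adjusted p = 0.219, edgeR). Its lowest Aro5 value was that of 108-1y. Epha4, a receptor of axon guidance, differed by 0.42 ± 0.13, Fzd3, a Wnt receptor, by 0.73 ± 0.24, Efnb2 by 0.58 ± 0.20 and Nrg1, the ligand of Erbb4, by 0.32 ± 0.14. The 2 entries of Tcf7l2, which is also a thalamic gene, had log2 fold changes of -0.54 ± 0.48 and -0.13 ± 0.45.

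Pou genes, a family of neural transcription factors, were above 0 in 9 of 9 tested entries, with a median of 0.36. At an unadjusted p under 0.05, 5 were higher, where 7.29% of all genes were. None was called with all pups by edgeR or DESeq2, nor in the window by edgeR. Pou3f2, which acts in upper-layer cortical neurons, had 6.42 to 17 CPM in Aro5 (median 10) and 4.24 to 10.4 CPM in controls (median 6.58), a log2 fold change of 0.64 ± 0.22 (adjusted p = 0.26, edgeR). Pou3f3 and Pou3f1 differed by 0.32 ± 0.13 and 0.45 ± 0.18. In contrast to the genes above, Pou3f2 and Pou3f3 were lowest of the 6 Aro5 pups in 120-1y. Without litter 120 their log2 fold changes were 0.85 and 0.43. Genes of neocortical layers had values above 0 in 9 of 9, with the summed levels given for the dissection. Of these, 4 were higher at an unadjusted p under 0.05 (7.29% of all genes), and 0 were called with all pups in edgeR. Cux2, an upper-layer gene, differed by 0.67 ± 0.22 and Rorb, a gene of the granular layer, by 0.70 ± 0.19 (adjusted p = 0.249 and 0.143, edgeR). Rorb was the only one of them called by DESeq2, and their part in the Pou values was not tested.

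Sox genes showed no shared direction. Of 16 tested entries 9 were above 0, the median was 0.10, and 0 were called by edgeR or DESeq2. At an unadjusted p under 0.05, 2 were higher (7.29% of all genes). Sox11, a factor of newborn neurons, had 9.55 to 20.7 CPM in Aro5 (median 15.9) and 6.74 to 19.8 CPM in controls (median 9.36), a log2 fold change of 0.54 ± 0.21 that was 0.82 in the window (adjusted p = 0.292 and 0.0402, edgeR). Sox17, an endothelial factor, differed by 0.42 ± 0.15. Among 11 interneuron genes Pvalb alone had an unadjusted p under 0.05. Sst and Vip, peptides of other interneuron classes, differed by -0.03 ± 0.19 and 0.40 ± 0.26, and Gad1, an enzyme of GABA synthesis, by -0.20 ± 0.15.

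Among synaptic genes more were higher than lower at an unadjusted p under 0.05, without a call. For glutamate receptors 5 of 22 tested were higher and 1 lower at an unadjusted p under 0.05, for GABA receptors 5 of 15 higher, for synaptic adhesion 7 of 20, for sodium channels 4 of 12, for presynaptic genes 3 of 25 and for protocadherins 6 of 48, where 7.29% of all genes were higher. No member of these 6 lists was called by edgeR or DESeq2 with all pups, and 3, 2, 5, 3, 2 and 3 were called higher in the window, in the same order, where 4.18% of all genes were. Grm5, a metabotropic glutamate receptor, had 62.8 to 229 CPM in Aro5 (median 149) and 43.9 to 145 CPM in controls (median 79), a log2 fold change of 0.80 ± 0.24 (adjusted p = 0.219, edgeR). Its lowest Aro5 pup was 108-1y, with a level within the range of controls.

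**Figure D5:**
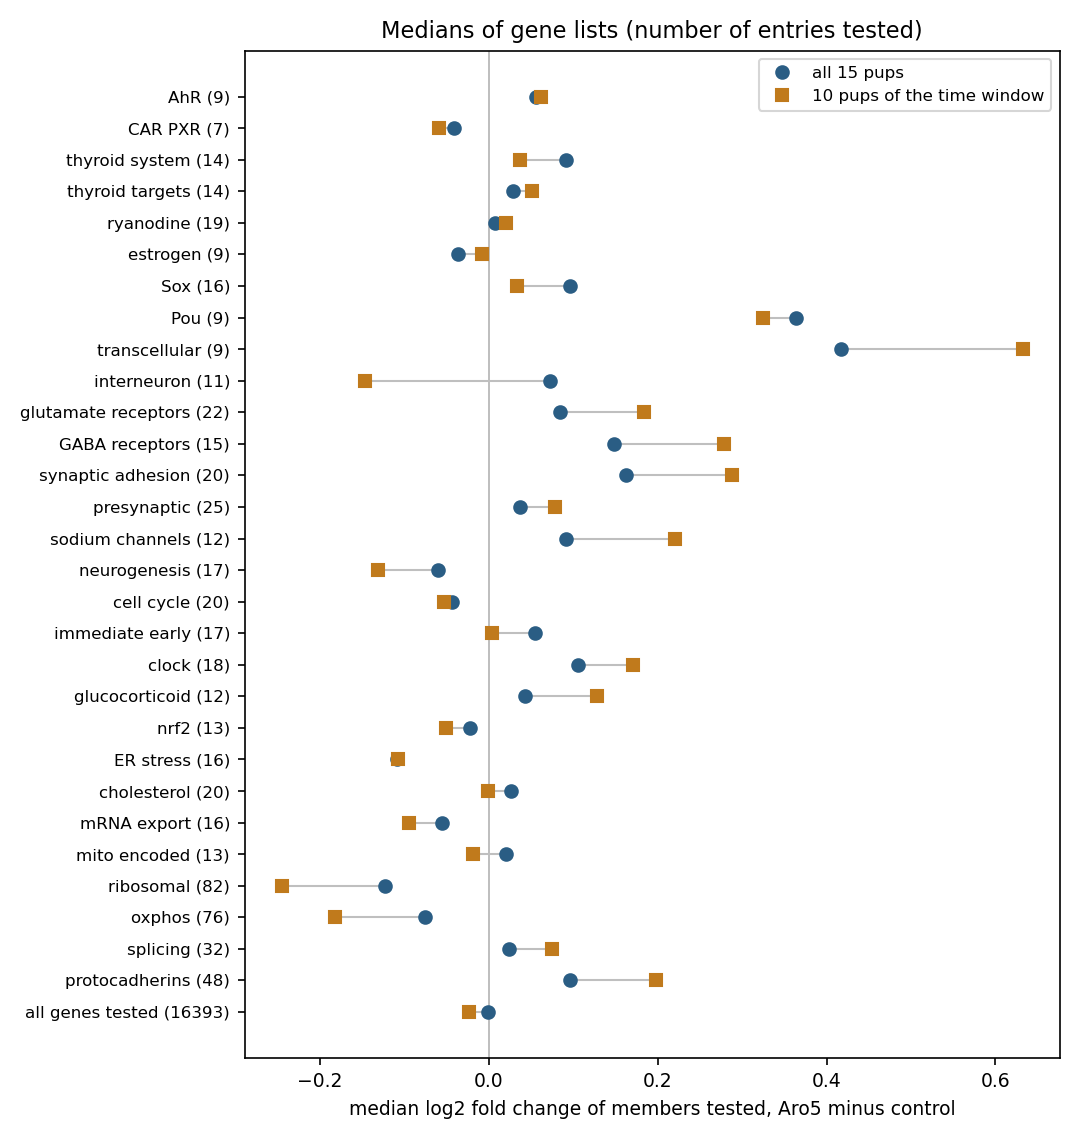
Median log2 fold change of Aro5 against control males (x axis) over the tested members of 29 gene lists and over all genes, with all 15 pups (circles) and with the 10 pups of the time window (squares). With all pups the medians lie between -0.12 for ribosomal proteins and 0.42 for the growth factors and receptors, and those of most lists lie farther from 0 in the window.

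Lists of other functions held no called gene with all pups by edgeR, apart from the copy Chtop among mRNA export genes and Hnrnph3 among splicing genes. Over all genes, 7.29% were higher and 4.48% lower at an unadjusted p under 0.05. Of 18 clock genes 4 were higher at that level, with Per3, a clock repressor, at 0.46 ± 0.18. Of 17 immediate early genes Egr3 alone had an unadjusted p under 0.05 (log2 fold change 0.59 ± 0.23). Nr3c1, the glucocorticoid receptor, differed by 0.33 ± 0.13, and Pgr and Esr1, the progesterone and estrogen receptors, by 0.56 ± 0.21 and 0.39 ± 0.19. Of 16 genes of endoplasmic reticulum stress 3 were lower, with Hsp90b1, a chaperone, at -0.18 ± 0.07, and of 13 targets of the antioxidant factor Nrf2 1 was higher and 1 lower. Of 20 cell cycle genes Mcm3, part of the replicative helicase, alone was lower (-0.24 ± 0.09), of 17 neurogenesis genes 0 had an unadjusted p under 0.05, and of 20 cholesterol genes 1 was higher and 1 lower.

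Markers of glia, vessels and blood held no called gene. Median log2 fold changes were -0.12 for 14 genes of the oligodendrocyte lineage, -0.03 for 11 of astrocytes, -0.17 for 12 of microglia, -0.03 for 10 of endothelium, -0.17 for 7 of choroid plexus and -0.24 for 6 of red blood cells, with 0 called in edgeR or DESeq2. At an unadjusted p under 0.05, Slc1a2, the main glutamate transporter of astrocytes, was higher (0.71 ± 0.26) and Tmem119, a marker of microglia, was lower (-0.55 ± 0.19). In bulk tissue, fewer cells of a type and less RNA per cell cannot be told apart. For 9 striatal genes the median was -0.04, and their summed level ran from 139 to 1091 CPM in Aro5 and from 159 to 833 CPM in controls.

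A contrast without any control pup, of Aro5 against the mean of BPA5 and CPF3, holds libraries of form B alone. It had 0 called genes of 16393 in edgeR (0%), 1 in DESeq2, and 825 at an unadjusted p under 0.05 (5.03%). In the window there were again 0 (0%), with edgeR alone run there, and 2563 at an unadjusted p under 0.05 (15.5%). The lowest p belonged to Slfn4, now Slfn3, of a family of growth regulators in immune cells, with 0.124 to 0.571 CPM in Aro5, 0.649 to 1.61 CPM in BPA5 and 0.877 to 1.5 CPM in CPF3. Its log2 fold change was -1.61 ± 0.34 (unadjusted p = 4.22e-05, adjusted p = 0.692, edgeR), and the Aro5 pups lay below all pups of both groups at these low levels. Prokr1, a prokineticin receptor, differed by 0.62 ± 0.16, and Psmb11, Tmprss5 and PVR by -0.78 ± 0.18, -0.59 ± 0.15 and -0.40 ± 0.10 (adjusted p = 0.81 for each, edgeR).

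Females of the same dose gave 0 called genes of 16862 in edgeR (0%), with 539 at an unadjusted p under 0.05 (3.2%), and no other tool was run there. The difference between the responses of males and females was called in 3 genes (0.0178%), and all 3 are among the 32. Hnrnph3 had 3.99 to 6.21 CPM in Aro5 females and 5.13 to 7.54 CPM in control females, a log2 fold change of -0.19, which differs from that of males by 0.83 ± 0.15 (adjusted p = 0.0202, edgeR). LOC102551813 had 9.08 to 13.1 CPM in Aro5 males and 2.64 to 6.02 CPM in control males, but 1.64 to 2.57 CPM and 1.57 to 7.3 CPM in females (difference 1.99 ± 0.34, adjusted p = 0.0159, edgeR). Ybx1-ps4 was at 0.0614 to 0.299 CPM in Aro5 females and at 0 to 0.249 CPM in control females, near the level of Aro5 males (difference -4.03 ± 0.68, adjusted p = 0.0159, edgeR). Female controls hold libraries of both name forms, as told by the separator. By the same rule the names of all Aro5 female libraries have form A, so that form and treatment are partly tied in females, too. Whether this bears on the differences between the sexes was not tested.

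The lower dose of Aroclor 1254, compared with the same 9 controls, had 20 called genes of 16139 (0.124%), 13 higher (0.0806%) and 7 lower (0.0434%). The log2 fold changes of the genes named for the higher dose were small there: -0.11 for ND6, -0.18 for Hnrnph3, 0.07 for Tmem14a and -0.09 for Clasp1, beside -1.06, 0.64, -1.26 and -0.53 at the higher dose. Of 13 protein genes of the mitochondrial genome 8 were called higher at the lower dose and 0 at the higher dose. Markers of neighbouring tissue differed between these groups, too: at the lower dose the median log2 fold change was -0.92 over 9 striatal genes, 0.56 over 10 thalamic entries and -0.55 over 7 genes of choroid plexus, beside 0.00 over all genes, and their part in the calls was not tested. The Aro0.5 libraries have form A like those of the controls, so that dose and name form cannot be told apart between the 2 doses.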

How the data were processed

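The deposited files hold raw read counts per gene, 1 file per library, which the authors made from stranded mRNA libraries. The submitters' processing notes name STAR, featureCounts and kallisto without their roles, and the build Rnor_6.0, and how multiply mapping reads were treated is not given in the sources used here. No normalization had been applied, so that levels are given here as CPM of the deposited totals and carry no correction for gene length.

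Pups were grouped by their labels, and CONF and CONSC were combined as in the study's methods. The 2 libraries of control N2-2Y were summed. Counts of 29 high-dose and control males (9 control, 6 Aro5, 7 BPA5 and 7 CPF3) entered 1 fit in edgeR 4.0.16 (R 4.3.3) with TMM scaling, filterByExpr by group and the quasi-likelihood F test. Log2 fold changes are Aro5 minus control and are given ± SE. P-values were adjusted by Benjamini-Hochberg over all genes tested, genes with an adjusted p under 0.05 are called, and unadjusted p-values come from the same fit. Fitted changes of genes with counts near 0 depend on the prior count. Each replicate is a separate pup, and 120-1y and 120-2y share a dam. P-values set the difference between groups against the spread between pups, with littermates taken as independent. In the fits of the name form, the 2 libraries of 1 pup were kept separate and also taken as independent.

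The genes named are all called genes, the 10 raised and 10 lowered most of those called within the time window with a mean of at least 5 CPM and an established symbol, the 2 members with the lowest p and any called member of each of 29 gene lists and 10 marker lists, members of the AhR, thyroid, ryanodine, Sox, Pou, signalling and interneuron lists, and the 5 genes with the lowest p against the other high-dose males. Parents of called copies, mitochondrial genes and a few ribosomal genes were added after their values had been seen. The members and the lists were chosen with earlier results of these data known. Alternatives were DESeq2 1.42.0, other scaling, filters and controls, each pup left out, the time window, the name form as a covariate, and the litter as a block in limma 3.58.1. The fits without 108-1y and 117-4y and without litter 120, and those that leave out pups within the time window, were added after seeing the data. The tests were run on simulated counts before use. Numbers behind the text were tabulated in Python 3.11.15, with promoter windows (from 250 bases before to 50 bases after each start) from RefSeq tables for GRCr8, a build other than that of the counts, so that no coordinate was carried over.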

Additional observations from a re-analysis of the deposited data

Results flagged for a closer look

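Among 104 groups of 6 or 9 values looked at, 12 (11.5%) held a pup far from the others of its group. The genes were named for their results and several have few counts, so that no chance rate can be set beside this share. Control N2-2Y, the pup with libraries of both name forms, stood apart from the other 8 controls in 3 genes: it was lowest in LOC102555797 with 0.409 CPM, highest in Rps27l3 with 12 CPM and highest in LOC100360843 with 0.555 CPM. Control 8-4Y was highest in Pvalb with 15.6 CPM.

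Among Aro5 pups, 115-14y was highest in RGD1562404 and in LOC102555797 with 0.0307 CPM in each, which is a single count. Pup 116-6y was highest in LOC100360758 with 0.18 CPM and lowest in RGD1559821 with 1.18 CPM. Pup 120-1y was highest in LOC102548080 with 2.21 CPM, 120-2y in LOC692028 with 0.741 CPM, 108-1y in LOC100360522 with 3.43 CPM, and 117-4y in Tmem159, a gene of lipid droplets, with 8.13 CPM.

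The response to Aro5 differed between males and females in 3 genes by the interaction test of edgeR. The log2 difference of the responses, males minus females, was -4.03 for Ybx1-ps4, 1.99 for LOC102551813 and 0.83 for Hnrnph3, the splicing factor gene. The part of the name form in these differences was not tested.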

How the results depend on the processing

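Instead of 32 genes, 101 were called with DESeq2, 10 with at least 10 counts in every pup (of 13 called genes left there), 15 with feeding controls only, 21 with the 15 pups alone in the fit, 818 within the time window, 732 without 108-1y and 117-4y, 16 without litter 120, and 0 with the name form as a covariate. Leaving out 1 pup gave 25 to 176, with 67 without N2-2Y and 176 without 108-1y. Other scaling, no filter, either library of N2-2Y alone, injection controls only and litter 120 summed gave 26 to 45. With the litter as a replicate block, which could be fitted only in limma over both sexes (correlation within litters -0.0061), 30 genes were called, and 30 without the block. The same replicate numbers in different groups do not mark related pups.

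Within the time window, leaving out 1 pup gave 1746 (N2-2Y), 68 (N3-4Y), 10 (N4-7Y), 418 (N5-2Y), 9 (11-4Y), 19 (8-4Y), 471 (115-14y), 463 (116-6y), 13 (120-1y) and 11 (120-2y) genes. Against the other high-dose males DESeq2 called 1 gene. The sex difference had 33 genes with DESeq2, 312 in the window and 2 to 12 with 1 Aro5 male left out. The name form in female controls had 858 with DESeq2, and 76, 1049, 70, 127 and 145 without 1 library of form A, and 86, 218, 187, 64, 99 and 131 without 1 of form B. Of the genes in the lists 5 were called, 67 in the window, 22 without 108-1y and 14 with DESeq2.

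With the name form as a covariate, which rests on N2-2Y, the log2 fold change turned its sign in LOC102555797 (1.03), Rps27l3 (-0.011), LOC100360758 (0.073), Chtop (0.078), LOC500371 (-0.028), LOC103692051 (0.044), Trns1 (0.44), LOC103694482 (0.34), LOC103693210 (0.64), Clasp1 (0.026) and Tmem159 (0.083). The cause was not tested. Controls were sequenced less deeply than Aro5 pups, which limits genes under about 1 CPM.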
